A study of Mus musculus with 14 samples.

Results

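Transcripts of 37 genes of DNA replication and mitosis were followed in sorted cells of mouse pancreatic islets. The members were picked by gene symbol, all 37 were found among the 52459 genes of the deposited count table, and they were divided by role into 13 replication and 24 mitosis genes. The cells of interest were beta-galactosidase-positive islet cells (below, positive), and they were set against beta-galactosidase-negative islet cells (negative). Both came from dispersed islets of male C57BL/6J mice aged 7 months, an inbred strain, and the sort (FACS) went by acidic beta-galactosidase, a lysosomal enzyme activity used as a marker of senescent cells. No treatment or genetic change is named in the labels, and no marker of cell type is named for the sort. Each group had 7 libraries, numbered 1 to 7. Whether each library stands for its own mouse is not given in the labels. The p-values therefore cover the spread between libraries, which may be technical.

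A cell that divides copies its DNA in S phase and parts the copies in mitosis. Before S phase the MCM proteins, Mcm2 to Mcm7, are loaded on DNA as a ring-shaped helicase, and E2F factors switch on genes of replication. Later the cyclin-dependent kinase Cdk1, with cyclins A and B, starts mitosis. Genes of mitosis are held off by the DREAM complex and switched on through MuvB complexes with Foxm1. Senescent cells have left the cycle for good, and beta cells of adult mice divide rarely. Transcripts of mitosis are therefore read as marks of the small share of cells in the cycle, in whichever cell type they are.

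Total counts were 15585779 to 24577025 reads in positive and 11060144 to 23045934 reads in negative libraries. Transcripts of beta cells were abundant in both, with 10 beta cell markers summing to 99425 to 129660 CPM (read counts scaled to library size) in positive and 103463 to 154433 CPM in negative libraries. Markers of other cell types were unevenly spread. Of 20 endothelial markers 19 could be tested and 19 rose, with sums of 476 to 1567 CPM in positive and 9.04 to 89.4 CPM in negative libraries, and Cldn5 was at 0 in all negative libraries. Of 20 macrophage markers 19 were tested and 19 rose, with sums of 111 to 1112 CPM in positive and 18.7 to 30.6 CPM in negative libraries, and none was at 0 in a whole group. Pericyte markers rose too (5 of 6 tested, 8 listed), with sums of 38.4 to 118 CPM in positive and 1.42 to 29.5 CPM in negative libraries. The pericyte marker Higd1b was at 0 in all negative libraries. By contrast, 5 of 10 acinar markers fell. Of 4 delta cell markers 3 were tested and 2 rose, with sums of 309 to 2198 CPM in positive and 81.8 to 435 CPM in negative libraries. A marker near 0 in negative libraries can pass the filter on low read counts through positive libraries alone. Counts and medians over the markers tested are therefore partly set by that filter. The library negative 3 stood apart, with 1523 CPM over 10 fibroblast markers, against 16.4 to 66.1 CPM in the other 6 negative libraries. Positive 3, of the same number, had 226 CPM, against 12.9 to 43.8 CPM in the other positive libraries. Results are therefore given with and without negative 3, and positive 3 was kept in both.

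**Figure D1:**
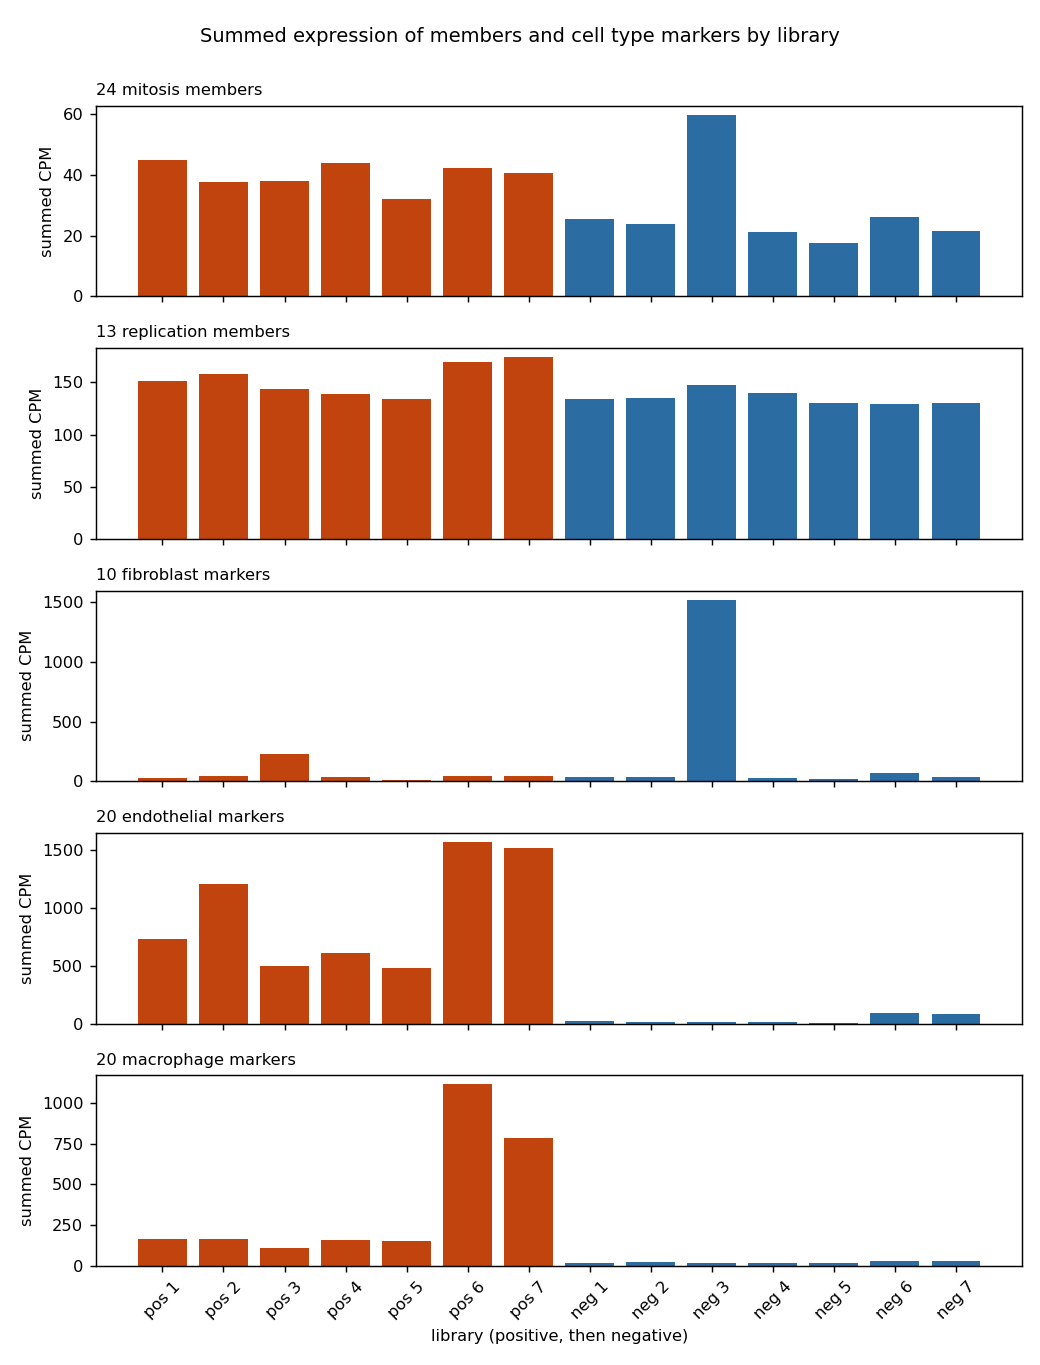
Summed CPM in each library (bars, positive libraries left in orange, negative libraries right in blue) of the 24 mitosis members, the 13 replication members and the fibroblast, endothelial and macrophage markers. Negative 3 had both the highest mitosis sum, 59.7 CPM, and the highest fibroblast sum, 1523 CPM, whereas the endothelial and macrophage sums were higher in every positive library than in any negative library.

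Of the 37 members, 33 had enough reads to be tested, and 3 of them rose in positive cells, Mcm3, Ckap2 and Ube2c, while none fell (edgeR's quasi-likelihood test, Benjamini-Hochberg adjusted p below 0.05). At an unadjusted p below 0.05 edgeR gave 10 higher and 0 lower. No share of all genes is given at that cutoff, so this count cannot be set against a background. DESeq2 called 5 higher and 0 lower, beside 1602 higher and 477 lower over all genes. The number of genes tested by DESeq2 is not given, so these counts are not turned into shares. The 3 calls are 9.09% of the members tested, beside 6.40% of all 16350 genes tested that rose and 1.63% that fell. With the replicate number as a further term (a block), 5 members rose and none fell, or 15.2% higher. In that fit 11.8% of all genes tested rose and 7.77% fell. The median log2 fold change was 0.25 over the members tested and 0.00037 over all genes tested. Without negative 3, 13 members rose and none fell, or 39.4% of the 33 tested, beside 7.63% higher and 3.71% lower of all 16607 genes tested then. Of the 13, 12 were mitosis genes and 1 was a replication gene. The difference between the replication and the mitosis genes was not tested as such. The 4 members with too few reads were the mitosis genes Ccnb1, Aurkb, Bub1 and Ttk. In bulk RNA of sorted cells, more dividing cells, more RNA per dividing cell and another mix of cell types cannot be told apart.

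**Figure D2:**
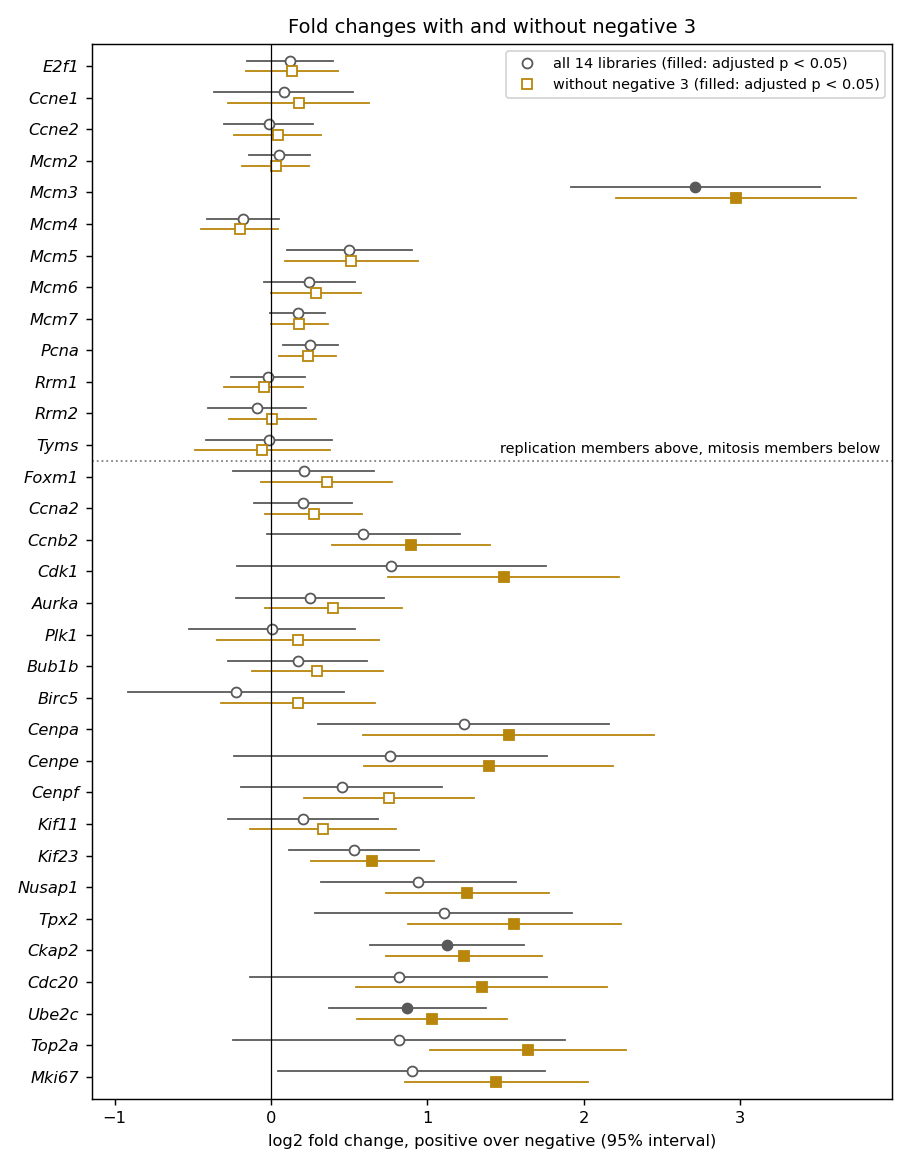
Log2 fold change of each tested member, positive over negative, with its 95% interval, in all 14 libraries (grey circles) and without negative 3 (gold squares); filled symbols had an adjusted p below 0.05. With all 14 libraries 3 members were called, and without negative 3 the 13 called were Mcm3 and 12 mitosis genes.

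The genes of the step into S phase did not pass the test. E2f1, a transcription factor that switches on replication genes, was at 7.36 ± 1.44 CPM in positive and 6.76 ± 1.00 CPM in negative libraries (SD, n = 7 each; log2 fold change 0.12 ± 0.13, SE). The E cyclins, partners of Cdk2 at the start of S phase, were as close, with Ccne1 at 3.58 ± 1.04 CPM in positive and 3.38 ± 0.895 CPM in negative libraries. Ccne2 was at 9.45 ± 1.20 CPM in positive and 9.55 ± 2.23 CPM in negative libraries. Positive 3 was alone at the top for Ccne2, with 12.03 CPM, against at most 9.44 CPM in the other positive libraries. The 95% intervals of the 3 log2 fold changes lay between −0.37 and 0.53.

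Among the 6 subunits of the MCM helicase, Mcm3 rose with or without negative 3, and the other 5 did not pass the test in either fit. Mcm3 (chromosome 1, 20802968 to 20820312, minus strand, GRCm38) had 4.20 CPM in the lowest, 6.17 in the median and 11.6 in the highest positive library, against 0.397, 0.833 and 2.28 CPM in negative libraries. Every positive library was above every negative library, and among the negative libraries negative 3 was the highest. Mcm3 rose by a log2 fold change of 2.71 ± 0.37 (SE, edgeR adjusted p = 0.000243), and 2.97 ± 0.36 without negative 3 (adjusted p = 0.000136). The call rested on 66 to 203 reads in positive and 6 to 38 reads in negative libraries, and it was kept without any single library and without the 4 libraries numbered 6 and 7 (2.58, adjusted p = 0.00435). No other gene of the GENCODE M21 annotation overlaps Mcm3.

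The other subunits gave log2 fold changes of −0.18 to 0.50. Mcm5 was at 2.99 ± 0.802 CPM in positive and 2.12 ± 0.463 CPM in negative libraries (SD, n = 7 each; log2 fold change 0.50 ± 0.19, SE, edgeR adjusted p = 0.129). Mcm6 was at 26.2 ± 5.65 CPM in positive and 22.2 ± 3.69 CPM in negative libraries (0.25 ± 0.14, edgeR adjusted p = 0.322). Mcm7, which lies over a cluster of microRNA genes and 2 genes of the other strand, was at 16.3 ± 1.76 CPM in positive and 14.5 ± 1.46 CPM in negative libraries. With the replicate number as a block and without the libraries numbered 3, Mcm5 (0.59, adjusted p = 0.0497) and Mcm6 (0.28, adjusted p = 0.0159) were called as well, beside 12.9% of all genes tested that rose and 10.6% that fell in that fit. The remaining subunits were not called, with Mcm2 at 0.05 ± 0.09 and Mcm4 at −0.18 ± 0.11 on the log2 scale. The 95% interval of Mcm3, 1.92 to 3.51, lay above that of every other subunit, the highest of which reached 0.90 in Mcm5.

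Per kilobase of exon, a scale on which genes can be compared with each other, Mcm3 had a mean of 1.93 CPM in positive and 0.287 CPM in negative libraries. It was the subunit with the lowest level per length in negative libraries, where the others had 0.531 CPM per kilobase (Mcm5) to 4.75 (Mcm6). In positive libraries it was at about the level of Mcm2, which had 1.80 CPM per kilobase. Of all reads of the 6 subunits, Mcm3 held 9.31 ± 2.91% in positive and 1.69 ± 0.991% in negative libraries (SD, n = 7 each). The libraries with the most reads of Mcm3 among the positive ones, 6, 7 and 2, with 13.7, 11.5 and 11.3%, had endothelial marker sums of 1567, 1512 and 1206 CPM. Positive 4, 5 and 3, with 7.09, 6.38 and 6.33%, had sums of 611, 476 and 501 CPM, and positive 1 stood between with 8.85% and 729 CPM. In negative libraries the share was highest in negative 3, with 3.25% and an endothelial sum of 15.1 CPM, whereas negative 6 and 7 had 2.62 and 2.06% with sums of 89.4 and 80.5 CPM. Pericyte markers were also higher where the share of Mcm3 was higher, with 115, 118 and 84.0 CPM in positive 6, 7 and 2, and 50.4, 43.3 and 38.4 CPM in positive 4, 5 and 3. The negative libraries with the highest shares, 3, 6 and 7, had pericyte sums of 29.5, 11.5 and 10.6 CPM, the highest 3 of their group. Delta cell markers summed to 1454, 2198 and 1655 CPM in positive 6, 7 and 2, and to 755, 873 and 309 CPM in positive 4, 5 and 3. In negative 3, 6 and 7 delta cell markers summed to 190, 435 and 354 CPM, against 81.8 to 268 CPM in the other negative libraries. Macrophage markers summed to 1112, 783 and 168 CPM in positive 6, 7 and 2, and to 162, 151 and 111 CPM in positive 4, 5 and 3. In negative 3, 6 and 7 they summed to 20.4, 29.8 and 30.6 CPM. Alpha cell markers, of which none of 6 tested was called, summed to 14894, 27472 and 19351 CPM in positive 6, 7 and 2. They summed to 7974, 11710 and 3456 CPM in positive 4, 5 and 3, and to 5771 CPM in positive 1. In negative 3, 6 and 7 alpha cell markers summed to 26307, 13976 and 11798 CPM. The highest alpha sum of the negative libraries was in negative 1, with 28079 CPM and an Mcm3 share of 1.36%. The part of endothelial, pericyte, macrophage, delta or alpha cell RNA in the rise of Mcm3 was not tested.

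**Figure D3:**
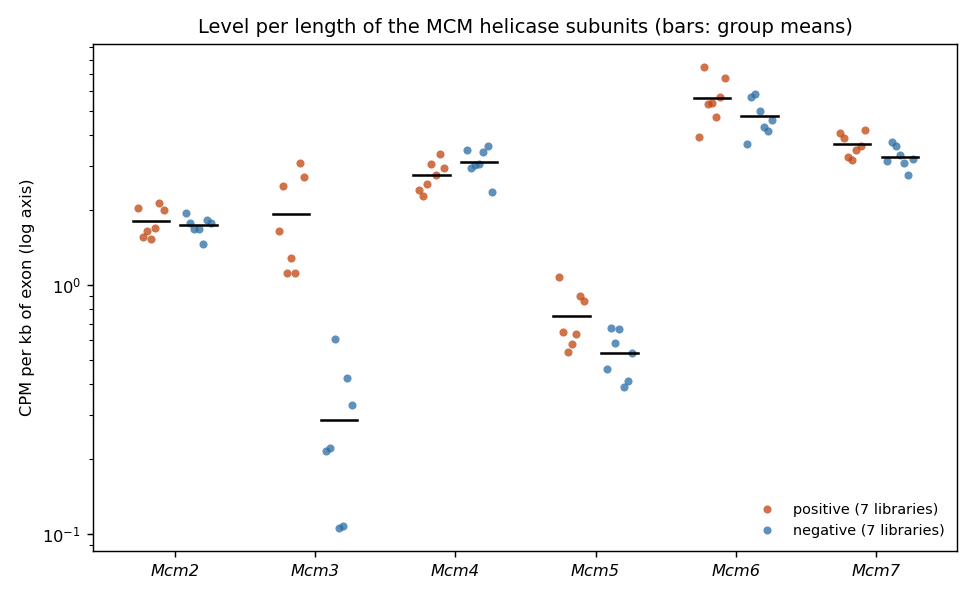
CPM per kilobase of exon of the 6 MCM helicase subunits in each library on a log axis, positive libraries left in orange and negative libraries right in blue, with the group mean as a bar. The groups were apart in Mcm3, with means of 1.93 and 0.287 CPM per kilobase, and overlapped in the other 5 subunits.

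The proximal promoters of the MCM genes are shown because the subunits are made for the same ring, whereas with all 14 libraries Mcm3 was the subunit called. RefSeq (GRCm38.p6) windows of 300 bases, of which 250 lie before and 50 after the start of transcription, were available for 31 members in 32 windows, and not for Ccne2, Mcm4, Foxm1, Ccna2, Aurkb and Tpx2. The letters searched, on both strands, were CCAAT (the CCAAT box, bound by NF-Y), TTTGAA (the CHR, or cell cycle genes homology region, bound by MuvB complexes) and TTTGGCGC, TTTCCCGC and TTTCGCGC (forms of the E2F site). The 120 bases before the start are printed 5′ to 3′ on the strand of the gene, with matches in capitals.
Mcm2 (chr6:88898781-88898900, minus strand): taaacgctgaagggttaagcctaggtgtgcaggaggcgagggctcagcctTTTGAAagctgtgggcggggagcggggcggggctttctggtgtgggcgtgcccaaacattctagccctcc
Mcm3 (chr1:20820313-20820432, minus strand): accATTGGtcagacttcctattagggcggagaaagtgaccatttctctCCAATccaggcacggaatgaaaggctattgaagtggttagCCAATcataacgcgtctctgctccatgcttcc
Mcm5 (chr8:75109389-75109508, plus strand): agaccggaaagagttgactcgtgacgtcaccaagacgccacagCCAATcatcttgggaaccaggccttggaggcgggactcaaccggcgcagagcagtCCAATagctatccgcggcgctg
Mcm6 (chr1:128359706-128359825, minus strand): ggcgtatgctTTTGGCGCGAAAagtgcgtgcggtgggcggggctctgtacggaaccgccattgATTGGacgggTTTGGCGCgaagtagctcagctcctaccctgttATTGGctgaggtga
The window of Mcm3 holds 3 CCAAT matches before the start and 2 E2F matches after it, at bases 20 to 27 and 39 to 46, outside the stretch shown. Mcm6 has 2 E2F stretches in the printed part, the first of them made of TTTGGCGC and TTTCGCGC matches that overlap, and Mcm5 has overlapping ones at −153 to −142. An E2F match thus stood in 4 of the 12 replication windows and in 1 of the 20 mitosis windows, beside 1.84% of all 32851 promoter windows. A match is a run of letters and not a bound site, and the windows with an E2F match were those of Mcm3, Mcm5, Mcm6 and Mcm7 and, among mitosis genes, Cdk1.

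The sliding clamp and the enzymes of nucleotide supply did not pass the test. Pcna, the clamp that holds DNA polymerase on its template, was the member with the highest level per length, 14.7 CPM per kilobase in positive and 12.3 in negative libraries. It had 31.3 CPM in the lowest, 34.5 in the median and 41.7 in the highest positive library, against 25.9, 29.5 and 33.6 CPM in negative libraries, and the groups overlapped (log2 fold change 0.25 ± 0.08, SE, edgeR adjusted p = 0.0816). Pcna also has pseudogenes with rows of their own in the table, and how reads were shared with them is not stated in the sources. The subunits of ribonucleotide reductase, Rrm1 and Rrm2, and thymidylate synthase, Tyms, which make DNA precursors, had log2 fold changes of −0.02 ± 0.11, −0.09 ± 0.15 and −0.01 ± 0.19 (SE). Rrm2 was highest in negative 3, with 3.07 CPM, against at most 2.23 CPM in the other negative libraries. With the replicate number as a block and without the libraries numbered 3, Pcna passed the test (0.26, adjusted p = 0.0433), as Mcm5 and Mcm6 did.

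The mitosis genes were low in both groups and rested on few reads. Per kilobase, Aurka was the highest of the 24, with 1.00 CPM in positive libraries and 0.836 CPM in negative libraries, and 10 of the 24 were called higher without negative 3 but not with all 14 libraries. Summed over all 24 genes, mitosis transcripts were at 31.9 CPM in the lowest, 40.7 in the median and 44.8 in the highest positive library. Negative libraries had 17.4, 23.7 and 59.7 CPM, and the highest was negative 3. The other 6 negative libraries ended at 26.3 CPM, below every positive library. The 13 replication genes summed to 134 to 174 CPM in positive libraries, against 129 to 147 CPM in negative libraries, so the groups overlapped with or without negative 3.

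Negative 3 was the highest negative library for 23 of the 24 mitosis genes and for 4 of the 13 replication genes. Among the members tested it was the highest for 23 of 33, beside 18.6% of all genes tested. The exception among the mitosis genes was Plk1, where negative 2 had 2.22 CPM and negative 3 had 2.10 CPM. In negative 3 Top2a was at 8.24 CPM, Mki67 at 6.73 and Cdk1 at 1.74 CPM, each above every positive library. Fibroblast markers were also highest there, as were pericyte markers, with 29.5 CPM against at most 11.5 CPM in the other negative libraries, and beta cell markers were the lowest of the group, with 103463 CPM. The part of these cells in the levels was not tested. In endothelial and macrophage markers, with sums of 15.1 and 20.4 CPM, negative 3 lay within the range of the other negative libraries.

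**Figure D4:**
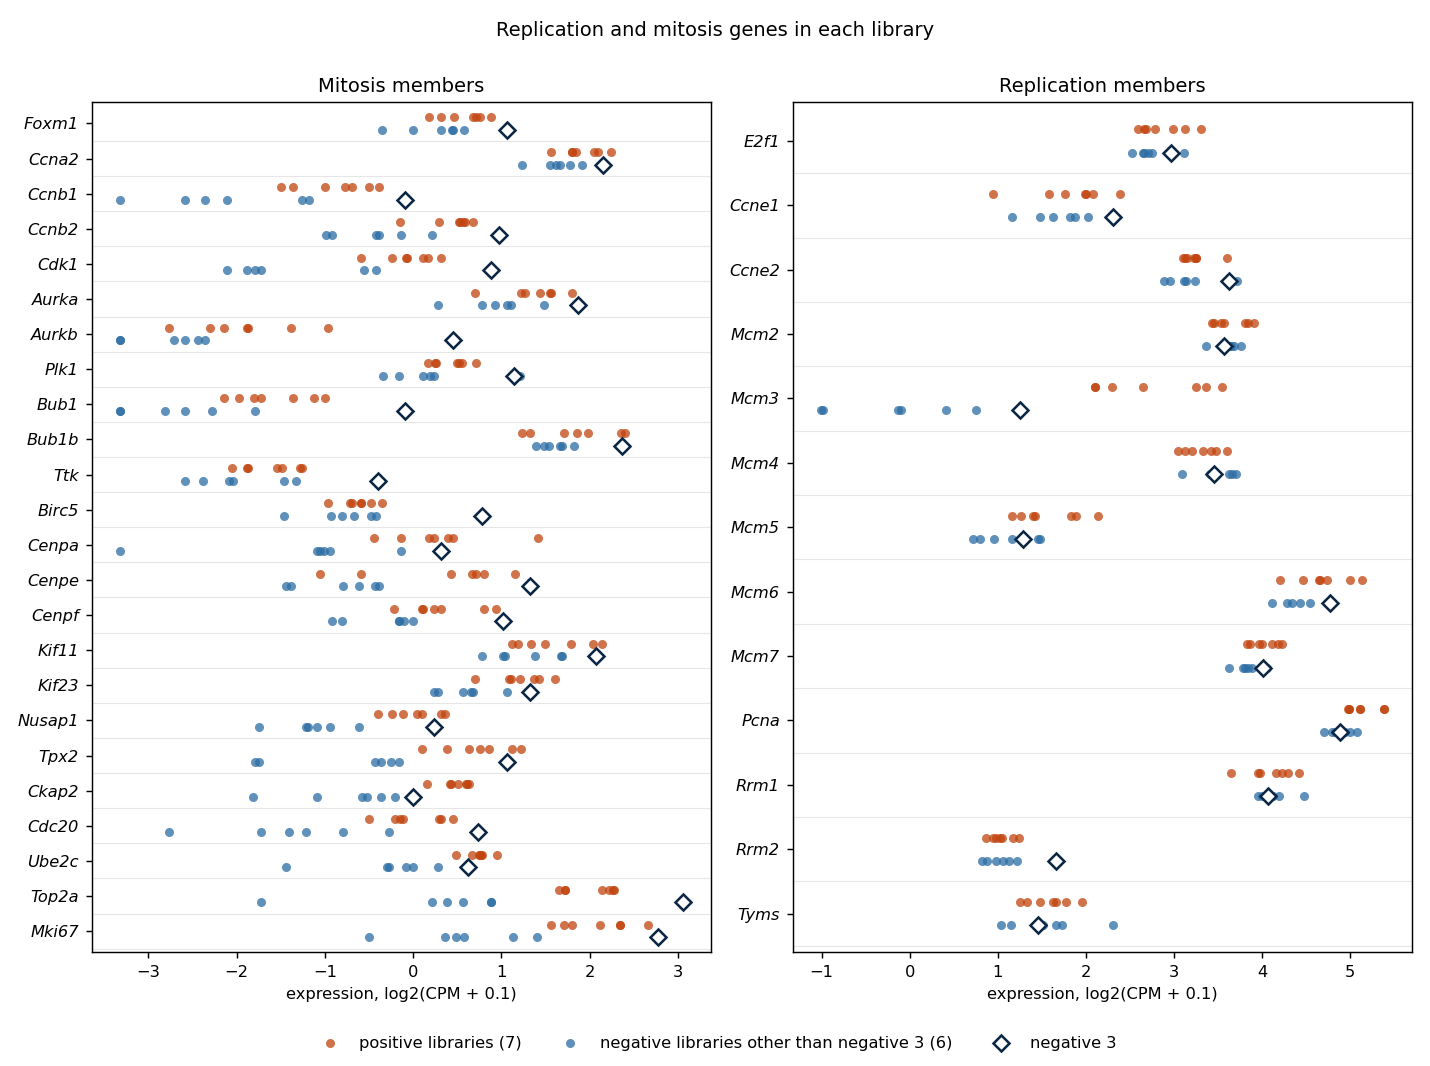
Expression of each member in every library, as log2(CPM + 0.1), with positive libraries (orange) above negative libraries (blue) in each row and negative 3 as an open diamond. In 23 of the 24 mitosis genes negative 3 lies to the right of all other negative libraries, and Mcm3 and Ckap2 are the members tested whose groups do not overlap.

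Ckap2 and Ube2c rose in positive cells with or without negative 3. Ckap2 (chromosome 8, 22168160 to 22185819, minus strand), a spindle protein that binds microtubules, had 1.02 CPM in the lowest, 1.33 in the median and 1.45 in the highest positive library, against 0.185, 0.596 and 0.902 CPM in negative libraries. The groups did not overlap, which held for 2 of the 33 members tested, beside 3.50% of all genes tested. The log2 fold change of Ckap2 was 1.13 ± 0.23 (SE, edgeR adjusted p = 0.00478), higher in 7 of 7 pairs of the same number, and 1.24 ± 0.23 without negative 3 (adjusted p = 0.00243). Ube2c, the ubiquitin-conjugating enzyme that works with the anaphase-promoting complex (APC/C), had 1.30 CPM in the lowest, 1.59 in the median and 1.83 in the highest positive library, against 0.270, 0.845 and 1.44 CPM in negative libraries. Only negative 3, at 1.44 CPM, reached the positive range. The log2 fold change of Ube2c was 0.87 ± 0.24 (SE, edgeR adjusted p = 0.0309, 7 of 7 pairs), and 1.03 ± 0.23 without negative 3 (adjusted p = 0.00683). Ube2c overlaps Tnnc2 on the other strand, and its call was near the threshold, being lost when any of positive 2, 5, 6 and 7 or negative 1, 4, 6 and 7 was left out (adjusted p of 0.0518 to 0.0711). Without the 4 libraries numbered 6 and 7, Mcm3 alone stayed called, with Ckap2 at 0.97 (adjusted p = 0.121) and Ube2c at 0.80 (adjusted p = 0.297). That smaller fit called 536 higher and 45 lower over all genes, against 1047 and 266 with all 14 libraries. The libraries left out had the highest macrophage and endothelial sums of their groups, and the part of such cells was not tested.

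The regulators that carry Cdk1 into mitosis were called in part, and only without negative 3. Cdk1 had 0.565 CPM in the lowest, 0.857 in the median and 1.15 in the highest positive library, against 0.132, 0.202 and 1.74 CPM in negative libraries. The groups overlapped, with 4 negative libraries below every positive one and negative 3 above every positive one. Cdk1 had a log2 fold change of 0.77 ± 0.47 (SE, edgeR adjusted p = 0.370) with all libraries and 1.49 ± 0.35 without negative 3 (adjusted p = 0.0105). Ccnb2, a B-type cyclin, was at 1.27 ± 0.236 CPM in positive and 0.839 ± 0.504 CPM in negative libraries (SD, n = 7 each; 0.59 ± 0.29, SE), and its log2 fold change without negative 3 was 0.89 ± 0.24 (edgeR adjusted p = 0.0228). Ccna2, cyclin A, had 0.20 ± 0.15, and Foxm1, the transcription factor of mitotic genes, 0.21 ± 0.21, and neither was called in either fit. Ccnb1, the other B-type cyclin, had 64 reads over the 7 positive and 33 over the 7 negative libraries, of which 14 were in negative 3, and was not tested.

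Among the mitotic kinases none was called with or without negative 3. Aurka, which builds the spindle poles, was at 2.53 ± 0.585 CPM in positive and 2.12 ± 0.790 CPM in negative libraries (SD, n = 7 each; log2 fold change 0.25 ± 0.22, SE). Plk1, which acts at several steps of mitosis, had 0.01 ± 0.25, and Bub1b, of the checkpoint that waits for chromosomes to attach, 0.17 ± 0.21. Aurkb, the kinase of the chromosomal passenger complex, had 26 reads over all positive and 27 over all negative libraries, and 21 of the 27 were in negative 3. The checkpoint kinases Bub1 and Ttk had 33 and 31 reads in positive libraries, and 22 and 30 in negative libraries, of which 14 and 11 were in negative 3. When no gene was filtered out, the fit gave Aurkb −0.26 ± 0.80, Bub1 0.39 ± 0.63 and Ttk −0.11 ± 0.45 (log2 fold change, SE), and none was called.

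At the centromere, Cenpa and Cenpe were called without negative 3. Cenpa, the histone H3 variant that marks the centromere, had 0.636 CPM in the lowest, 1.08 in the median and 2.57 in the highest positive library, against 0, 0.397 and 1.14 CPM in negative libraries. The groups overlapped, and the top value belonged to positive 6. Its log2 fold change was 1.23 ± 0.44 (SE, edgeR adjusted p = 0.108), and 1.52 ± 0.44 without negative 3 (adjusted p = 0.0348). Cenpe, a kinesin of the kinetochore, was at 0.76 ± 0.47 (edgeR adjusted p = 0.378) and 1.39 ± 0.37 without negative 3 (adjusted p = 0.0239). Cenpf, a large kinetochore protein, was at 0.76 ± 0.25 without negative 3 and missed the threshold (edgeR adjusted p = 0.0697). Birc5, survivin, a partner of Aurkb, was at 0.553 ± 0.0856 CPM in positive and 0.654 ± 0.446 CPM in negative libraries. Its log2 fold change was −0.22 ± 0.33 with all libraries and 0.17 ± 0.23 without negative 3, and it was not called in either fit.

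Of the spindle and cytokinesis genes, 4 of 5 were called without negative 3, and Ckap2 was called with it as well. Nusap1, which bundles spindle microtubules near chromosomes, had 0.657 CPM in the lowest, 0.933 in the median and 1.18 in the highest positive library, against 0.199, 0.370 and 1.08 CPM in negative libraries. Tpx2, which activates Aurka on the spindle, had 0.969, 1.59 and 2.23 CPM in positive libraries, against 0.190, 0.674 and 1.98 CPM in negative libraries. In both genes every positive library was above every negative library but negative 3. The log2 fold change of Nusap1 was 0.94 ± 0.29 (SE, edgeR adjusted p = 0.0621; 1.26 ± 0.24 and 0.00291 without negative 3), and that of Tpx2 was 1.10 ± 0.39 (adjusted p = 0.102; 1.56 ± 0.32 and 0.00454 without negative 3). Kif23, a kinesin of cytokinesis, was higher in the positive library of 7 of 7 pairs, with 0.53 ± 0.20 (adjusted p = 0.121; 0.65 ± 0.19 and 0.0338 without negative 3). Kif11, the kinesin that pushes spindle poles apart, had 0.20 ± 0.23 and was not called in either fit. When the replicate number entered as a block, over all 14 libraries, 5 members were called, the 3 named first, Kif23 (adjusted p = 0.0317) and Nusap1 (adjusted p = 0.0334), beside 11.8% of all genes tested that rose and 7.77% that fell in that fit. Nusap1 overlaps Oip5 on the other strand.

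Cdc20, the activator of the APC/C, and the chromosome proteins Top2a and Mki67 were called without negative 3 and not with it. Top2a, the topoisomerase that untangles sister chromosomes, had 3.05 CPM in the lowest, 4.30 in the median and 4.74 in the highest positive library, against 0.202, 1.38 and 8.24 CPM in negative libraries. Mki67, the antigen Ki-67 that coats mitotic chromosomes and serves as a marker of cycling cells, had 2.86, 4.25 and 6.23 CPM in positive libraries, against 0.607, 1.39 and 6.73 CPM in negative libraries. The highest value of both belonged to negative 3, and the next negative libraries reached 1.75 CPM for Top2a and 2.54 CPM for Mki67, below every positive library. For Top2a the log2 fold change was 0.82 ± 0.50 (SE, edgeR adjusted p = 0.372), and 1.64 ± 0.30 without negative 3 (adjusted p = 0.00164). That of Mki67 was 0.90 ± 0.40 (edgeR adjusted p = 0.208), and 1.44 ± 0.28 without negative 3 (adjusted p = 0.00256). Cdc20 was at 0.934 ± 0.243 CPM in positive and 0.518 ± 0.508 CPM in negative libraries (0.82 ± 0.45, edgeR adjusted p = 0.316), and at 1.35 ± 0.38 on the log2 scale without negative 3 (adjusted p = 0.0300). Its lowest negative library had 1 read.

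Without negative 3, every positive library lay above every negative library for 7 of the 33 members tested, Mcm3, Ckap2, Ube2c, Nusap1, Tpx2, Top2a and Mki67, beside 5.09% of all genes tested. With the replicate number as a block and without both libraries numbered 3, 17 of 32 members tested rose and none fell, beside 12.9% of all genes higher and 10.6% lower. They were the 13 called without negative 3, Cenpf and the 3 replication genes named above. Endothelial, macrophage, pericyte and delta cell markers rose in the same comparison, by medians of 4.80, 6.09, 2.72 and 2.50 on the log2 scale over the markers tested. Markers almost absent from negative libraries can be tested through positive libraries alone, which partly sets these medians. The part of these cells in the rise of mitosis transcripts was not tested. Positive 6 and 7 had the highest macrophage (1112 and 783 CPM), endothelial (1567 and 1512 CPM) and pericyte sums (115 and 118 CPM) of the positive libraries. Their mitosis sums were 42.1 and 40.7 CPM, and the other 5 positive libraries had 31.9 to 44.8 CPM. Whether mitosis sums go with any of these markers was not tested.

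Promoters of mitosis genes are shown for 2 genes called with all libraries (Ckap2, Ube2c) and 4 called without negative 3, because the CHR and the CCAAT box are the letters by which such genes are known to share control. The windows are the 120 bases before the start in RefSeq (GRCm38.p6), 5′ to 3′ on the strand of the gene, with TTTGAA and CCAAT matches of either strand in capitals (a match on the other strand reads TTCAAA or ATTGG).
Ckap2 (chr8:22185820-22185939, minus strand): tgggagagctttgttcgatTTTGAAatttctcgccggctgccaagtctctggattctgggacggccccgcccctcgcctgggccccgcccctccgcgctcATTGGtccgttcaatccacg
Ube2c (chr2:164769809-164769928, plus strand): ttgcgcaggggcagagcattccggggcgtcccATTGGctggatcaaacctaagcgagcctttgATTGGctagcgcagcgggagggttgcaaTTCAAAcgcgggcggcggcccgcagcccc
Cdk1 (chr10:69352913-69353032, minus strand): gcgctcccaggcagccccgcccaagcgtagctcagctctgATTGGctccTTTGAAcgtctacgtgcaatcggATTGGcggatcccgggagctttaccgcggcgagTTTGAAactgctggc
Cdc20 (chr4:118437344-118437463, minus strand): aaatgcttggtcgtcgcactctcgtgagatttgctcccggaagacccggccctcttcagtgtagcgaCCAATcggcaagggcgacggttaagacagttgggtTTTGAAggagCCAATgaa
Top2a (chr11:99024190-99024309, minus strand): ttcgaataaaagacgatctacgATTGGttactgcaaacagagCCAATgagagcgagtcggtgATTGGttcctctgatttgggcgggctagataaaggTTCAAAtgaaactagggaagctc
Mki67 (chr7:135716380-135716499, minus strand): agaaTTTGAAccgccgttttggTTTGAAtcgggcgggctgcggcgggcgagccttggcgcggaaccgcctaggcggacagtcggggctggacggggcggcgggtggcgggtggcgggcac
A TTTGAA match stood in 15 of the 20 mitosis windows of 300 bases and in 1 of the 12 replication windows, that of Mcm2, beside 17.9% of all promoter windows. A CCAAT match stood in 18 of the 20 mitosis windows and 9 of the 12 replication windows, beside 37.4% of all. In the printed stretches Ube2c, Cdk1, Cdc20, Top2a and Ckap2 carry both, and Mki67 carries 2 TTTGAA matches. Plk1, Bub1b, Aurka and Kif11, which were not called with or without negative 3, hold a TTTGAA match in their windows too. The windows of Nusap1 and Birc5 held neither.

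Further genes of the same processes were counted the same way. Of 50 other replication genes 45 were tested, 3 rose and none fell, with a median log2 fold change of 0.04. That is 6.67% higher, near the 6.40% of all genes tested. They were Cdt1, which loads the MCM ring (4.70 ± 1.93 CPM in positive and 2.41 ± 0.898 CPM in negative libraries, SD, n = 7 each; 0.96 ± 0.28, SE, edgeR adjusted p = 0.0476), Mcm10, which helps to fire origins (0.83 ± 0.21, adjusted p = 0.0181), and Timeless, a protein of the replication fork (1.88 ± 0.34, adjusted p = 0.00186). The call of Cdt1 was near the threshold: it was kept without positive 3, positive 5 or negative 3 and lost without any of the other 11 single libraries (adjusted p up to 0.119). With the replicate block 7 rose (15.6%) and 2 fell, beside 11.8% of all genes tested that rose and 7.77% that fell. Without negative 3, 4 rose (8.7%) and 1 fell, beside 7.63% of all genes tested that rose and 3.71% that fell. The gene that fell, Rnaseh2a (−0.30, adjusted p = 0.0354), was picked after its value was seen. Of 71 other mitosis genes 48 were tested and 2 rose, Ect2, which places the cleavage furrow (0.75 ± 0.17, edgeR adjusted p = 0.00878), and Kifc1, a spindle kinesin (1.26 ± 0.25, adjusted p = 0.00304), and none fell. That is 4.17%, below the 6.40% of all genes tested. With the replicate block 4 rose, or 8.33%, below the 11.8% of all genes tested. Without negative 3, 8 of the 48 rose, or 16.7% beside 7.63% of all genes tested, and negative 3 was the highest negative library for 44 of the 71. Of 16 E2F, retinoblastoma and DREAM factors 15 were tested and none was called in the main edgeR fit. With the replicate block 2 of the 15 rose and none fell, or 13.3% higher beside 11.8% of all genes tested. At an unadjusted p below 0.05 the main fit gave 1 higher and 0 lower, and DESeq2 called 1 higher. No share of all genes is given for either, and neither count is read as a result about these factors. Without negative 3 E2f3 rose (0.40, adjusted p = 0.0173), also picked after its value was seen. That is 6.67% of those tested, beside 7.63% of all genes tested then.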

How the data were processed

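Per the labels' protocols, polyadenylated RNA of sorted islet cells was selected and RNA-seq libraries were made with a strand-marking kit. The tools named in the submitters' processing notes are Subread and featureCounts, and the genome build is GRCm38. Versions, annotation and strand setting are not given in the sources used here, so overlapping genes (14 of the 37 members) and near-identical copies are uncertain. The authors deposited 1 table of counts, whole numbers per gene and library that were not normalized.

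Group differences were fitted in edgeR 4.0.16 (R 4.3.3) with filterByExpr (16350 of 52459 genes), TMM factors (0.969 to 1.03), robust dispersions, the quasi-likelihood F-test with group as the only term, and Benjamini-Hochberg adjustment over all genes tested, two-sided. Calls have an adjusted p below 0.05. Standard errors come from the F statistic, and CPM use TMM-scaled library sizes. Lengths are unions of exons in GENCODE M21 (GRCm38), which matched all 37 members. On simulated counts of the same size (7 against 7, 16194 genes tested, 200 changed), 49% of 1.5-fold and 82% of 2-fold changes were recovered, and 7.09% of calls were unchanged genes. These shares are not split by read level, so they do not give the recovery for genes with few reads, such as the mitosis members.

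Between any libraries of 1 group the counts differed by a chi-square of at least 5.36 per degree of freedom, so all 14 were counted as separate samples. Deviations from the group means correlated at 0.20 to 0.54 between libraries of the same number in each of the 7 pairs, and between libraries of other numbers the median was −0.13. The numbers in the titles were therefore taken to pair the libraries. The main fit leaves this pairing out, and the counts of calls from a fit blocked on that number are given beside it. Alternatives were DESeq2 1.42.0 (size factors, and its own test), other filters, no robust estimation, each library left out, and the libraries numbered 6 and 7 left out. All 37 members are named, and of each further list up to 4 called genes per direction with the highest CPM. The members, the further gene lists and the tests were chosen with earlier results of these data known.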

Additional observations from a re-analysis of the deposited data

Results flagged for a closer look

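In each group of 7, a library was marked when it lay far from the other 6, by Dixon's rule at its 95% critical value. Chance marks about 1 in 20 groups where groups are independent and values normally spread. The groups here share the same libraries, so marks on the same library are not separate events. Of 74 groups examined (37 genes in positive and in negative libraries) 17 were marked, and 14 of the 17 marks fell on negative 3, which was the highest of its group each time. These were Top2a (8.24 CPM, others up to 1.75), Mki67 (6.73, others up to 2.54), Bub1b (5.05, others up to 3.43), Rrm2 (3.07, others up to 2.23) and Cenpe (2.40, others up to 0.662). They also included Tpx2 (1.98 CPM), Cenpf (1.92), Cdk1 (1.74), Birc5 (1.62), Aurkb (1.26), Nusap1 (1.08), Ccnb1 (0.842), Bub1 (0.842) and Ttk (0.661). Fibroblast markers summed to 1523 CPM in that library, and their part was not tested. The other 3 marks were Cenpa in positive 6 (2.57 CPM, others up to 1.27), Ccne2 in positive 3 (12.03 CPM, others up to 9.44) and Rrm1 in negative 1 (22.1 CPM, others up to 18.2).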

How the results depend on the processing

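The call of Mcm3 was kept under every setting run, that of Ube2c was lost without 8 of the 14 single libraries and without those numbered 6 and 7, and that of Ckap2 was lost only without the libraries numbered 6 and 7. No member fell in any setting. The number of members that rose was 5 with DESeq2's test and with the replicate block, 17 with the block and without the libraries numbered 3, 1 without those numbered 6 and 7, and 2 to 13 when single libraries were left out, with 13 only without negative 3. It was 3 under the other settings. DESeq2's test added Cenpa (adjusted p = 0.0490) and Nusap1 (adjusted p = 0.0494). Over all genes, in the same order, 1602, 1930, 2116 and 536 rose, and 477, 1270, 1733 and 45 fell, with 825 to 1267 higher and 140 to 616 lower without single libraries. The fewest lower genes were called without positive 6 (140), positive 3 (160) and positive 7 (162), and the most without negative 3 (616). Of the other replication genes 7 rose and 2 fell with the replicate block, with or without the libraries numbered 3, 1 rose without those numbered 6 and 7, 1 fell with DESeq2's test, and 2 to 4 rose and 0 to 1 fell without single libraries. Cdt1 was also lost with no filter (adjusted p = 0.0606) and with at least 1 CPM in 7 libraries (adjusted p = 0.0504). Of the other mitosis genes 4 rose with DESeq2's test and with the block, 11 with the block and without the libraries numbered 3, 1 with at least 1 CPM in 7 libraries, 0 without those numbered 6 and 7, and 2 to 8 without single libraries. Of the cycle regulators 1 rose with DESeq2's test, 2 with the block, 1 with the block and without the libraries numbered 3, and 0 to 1 without single libraries.

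Log2 fold changes that turned sign were of uncalled genes, with main estimates from −0.22 (Birc5) to 0.08 (Ccne1). Birc5 turned sign only without negative 3, where it was at 0.17. With the replicate block Ccne2 was at 0.0022 and Tyms at 0.018; with the block and without the libraries numbered 3 Rrm2 was at 0.0061. Without those numbered 6 and 7 Mcm2 was at −0.011, Tyms at 0.0056 and Plk1 at −0.20, and Plk1 was at −0.014 with no filter and −0.0019 with at least 1 CPM in 7 libraries. Without single libraries the ranges were −0.032 to 0.18 (Ccne1), −0.084 to 0.058 (Ccne2), −0.0061 to 0.090 (Mcm2), −0.090 to 0.035 (Rrm1), −0.15 to 0.0074 (Rrm2), −0.11 to 0.15 (Tyms), −0.12 to 0.17 (Plk1) and −0.38 to 0.17 (Birc5). The cause of these changes was not tested. Outside Top2a, Mki67 and Bub1b no mitosis gene had more than 84 reads in any library, which limits how small a change could be called.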
